A study of Mus musculus with 6 samples.

Results

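The cytosolic ribosomal proteins form the protein part of the ribosome that translates nuclear-encoded mRNA. Here 60 of their genes were followed by ribosome profiling in mouse CD4+ T cells, 34 of the large (60S) and 26 of the small (40S) subunit. They were chosen by their identity as ribosomal proteins and by Ensembl ID, not by a measured value, though with earlier results of these data known. All 60 were found among the 22322 genes of the deposited count table. The symbols come from the list that defines the set, because the table gives IDs alone. Ribosome profiling sequences the short mRNA fragments that ribosomes protect, called footprints.

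The 6 libraries were 3 of resting and 3 of activated cells, numbered 2, 3 and 4 in both groups. All cells came from 6-week-old female mice of strain C57BL/6J and were isolated from spleen and lymph nodes by depleting the other cells. Activation used beads that carry antibodies against CD3 and CD28. Both groups were labelled untreated at 0 h, which is read here as before any inhibitor of transcription or translation; whether one was added at lysis is not stated. The sources used here give neither the time with beads nor whether a library came from 1 animal or a pool. The p-values thus cover only the spread among the 3 libraries of a group, which the labels call biological replicates. Between 437200 and 1074656 footprints per library were counted in coding sequence (CDS), the translated part of an mRNA. Between 65.8% and 79.6% of each library's records did not align uniquely, which bears on these genes because they have many near-identical copies. The purity of the cells was not checked against marker genes, since the IDs could not be matched to marker symbols here. In such bulk samples, fewer cells of a type and less RNA per cell cannot be told apart, and a footprint count does not separate the amount of an mRNA from the number of ribosomes on each copy.

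Each ribosome carries a single copy of nearly every ribosomal protein, and the stalk proteins Rplp1 and Rplp2 are the exception. The large subunit joins amino acids, and the small subunit reads the mRNA. Vertebrate ribosomal protein mRNAs belong to the class that starts with a terminal oligopyrimidine tract, a run of C and T (C and U in RNA) at the very 5' end, through which growth and nutrient signals acting on the kinase mTOR govern their translation. T cells that leave the resting state grow before they divide, and making ribosomes is a large part of that growth.

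The start of the gene is shown first because the tract lies there. RefSeq promoter entries, on GRCm38.p6, were matched by symbol for 44 of the 60 genes. In the windows below, 30 bases before the annotated start are followed by the first 20 transcribed bases, on the strand of the gene, and capitals mark an uninterrupted run of at least 8 C or T that touches the 25 bases on either side of the start. The first 5 have a run across the annotated start, Rpl13 has one that ends before it, and the last 3 have none within the window (a run in Rps23 begins at base 25, past its end). They lie at chr9:120571487-120571536 (plus strand), chr14:18270967-18271016 (minus), chr2:39005112-39005161 (minus), chr19:6057917-6057966 (plus), chr7:141447621-141447670 (plus), chr8:123102320-123102369 (plus), chr2:32961682-32961731 (plus), chr9:120127736-120127785 (plus) and chr13:90923092-90923141 (plus), in the order of the lines.
Rpl14: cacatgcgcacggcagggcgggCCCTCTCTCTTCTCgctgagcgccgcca
Rpl15: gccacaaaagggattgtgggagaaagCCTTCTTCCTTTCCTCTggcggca
Rpl35: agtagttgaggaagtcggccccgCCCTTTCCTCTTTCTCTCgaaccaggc
Fau: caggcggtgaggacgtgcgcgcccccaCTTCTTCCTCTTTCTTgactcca
Rplp2: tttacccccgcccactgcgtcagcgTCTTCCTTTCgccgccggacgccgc
Rpl13: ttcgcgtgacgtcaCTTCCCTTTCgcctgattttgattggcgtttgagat
Rpl12: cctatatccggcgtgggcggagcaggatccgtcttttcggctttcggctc
Rpsa: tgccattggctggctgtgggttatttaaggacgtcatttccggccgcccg
Rps23: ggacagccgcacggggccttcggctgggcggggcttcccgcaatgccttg

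A run of at least 8 C or T near the start was present in 27 of the 44 matched genes (61.4%), against 26.7% of 17492 protein-coding genes with an entry. A run across the annotated start was present in 15 of the 44 (34.1%), against 4.20%. In windows of 250 bases before to 50 bases from the start, searched on both strands, CCGGAAG was present in 18 of the 44 (40.9%), against 12.9% of all genes. These letters form the core bound by ETS factors. CACGTG, the E-box core bound by Myc and its relatives, was present in 6 (13.6%), against 8.91%, and TATAAA in 3 (6.82%), against 14.8%. A match describes letters and not a bound site, and annotated starts can lie some bases away from the starts used in T cells. The 15 genes with a run across the start had a median log2 change in CDS footprints of 1.66 (1.41 to 2.05), activated over resting, and the 29 without one had a median of 1.55 (0.84 to 2.36), so the ranges overlapped.

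The first comparison asked how footprints on these genes differed between resting and activated cells. All 60 rose in the activated cells. Their median log2 change was 1.57, with quartiles of 1.38 and 1.74 and a range from 0.84 to 2.36, while the median over all 6775 genes tested was -0.04. All 60 passed the filter on low counts and all 60 passed an adjusted p of 0.05, with 0.00164 as the largest adjusted p among them, where 24.1% of all genes tested were higher by the same rule. In each of the 60, all 3 activated libraries were above all 3 resting ones, which held for 28.1% of all genes tested. A rise of at least 2-fold was reached by 59 of the 60, against 14.7% of all genes tested, and the gene below it was Rps23. Tested against a 2-fold change instead of no change, 45 of the 60 passed, against 8.01% of all genes. The members have means of 98.4 to 1963 counts per 1000000 (CPM, on library sizes scaled with TMM factors) in CDS, and among the 2326 genes within that range 37.6% were higher, with a median log2 change of 0.15.

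**Figure D1:**
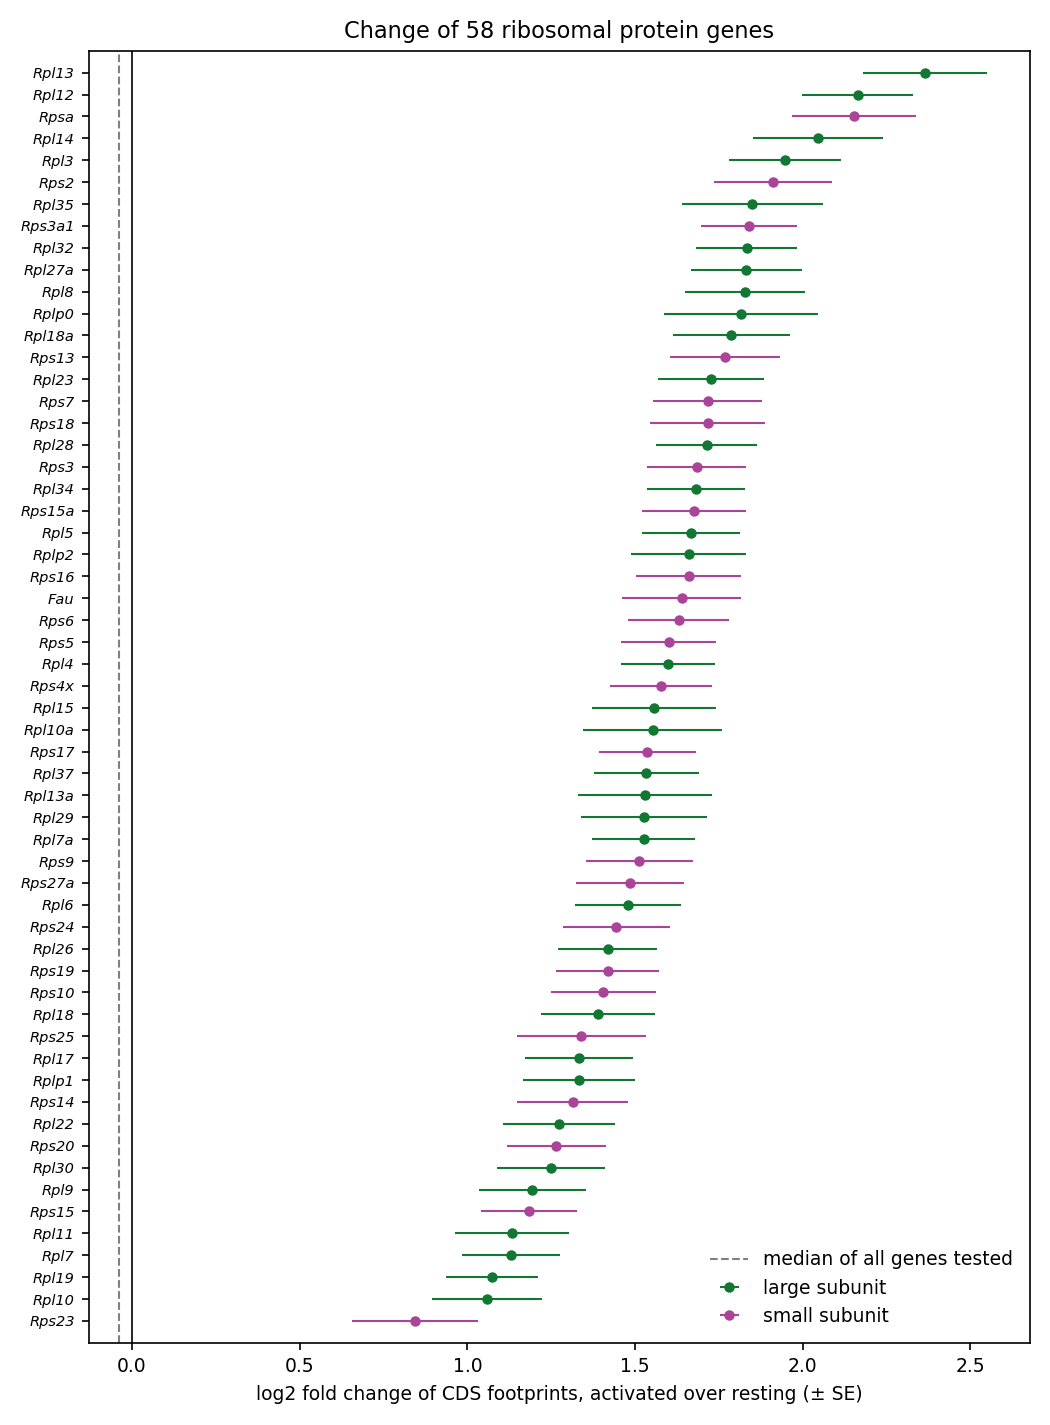
The log2 fold change of CDS footprints, activated over resting, for 58 of the 60 genes, ordered by size, with bars for the standard error, large subunit in green and small subunit in purple. Every gene plotted lies to the right of 0, from 0.84 for Rps23 to 2.36 for Rpl13, while the dashed line marks the median of all genes tested, -0.04.

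The size of the change depended on how libraries were scaled, and its sign did not for any of the 60 genes in any scaling run. With library totals alone, the members' median was 1.23 and that of all genes tested was -0.38, and 1099 genes were higher and 2560 lower, against 1633 and 1449 with the main scaling. With upper quartile factors the medians were 1.43 and -0.17, with 1392 genes higher and 1881 lower.

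A share of all CDS counts is scaled by library totals alone, so it goes with that setting and is no separate support. The 60 genes held 3.04%, 2.70% and 2.63% of CDS counts in the resting libraries and 7.06%, 6.98% and 6.16% in the activated libraries. No activated library came near a resting one. The mean rose from 2.79% ± 0.22 (SD, n = 3) to 6.74% ± 0.50 (SD, n = 3), a difference of 3.95 percentage points and a ratio of 2.41. The exact binomial 95% interval, which covers counting error only, was widest in activated replicate 2, from 6.99% to 7.14%.

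**Figure D2:**
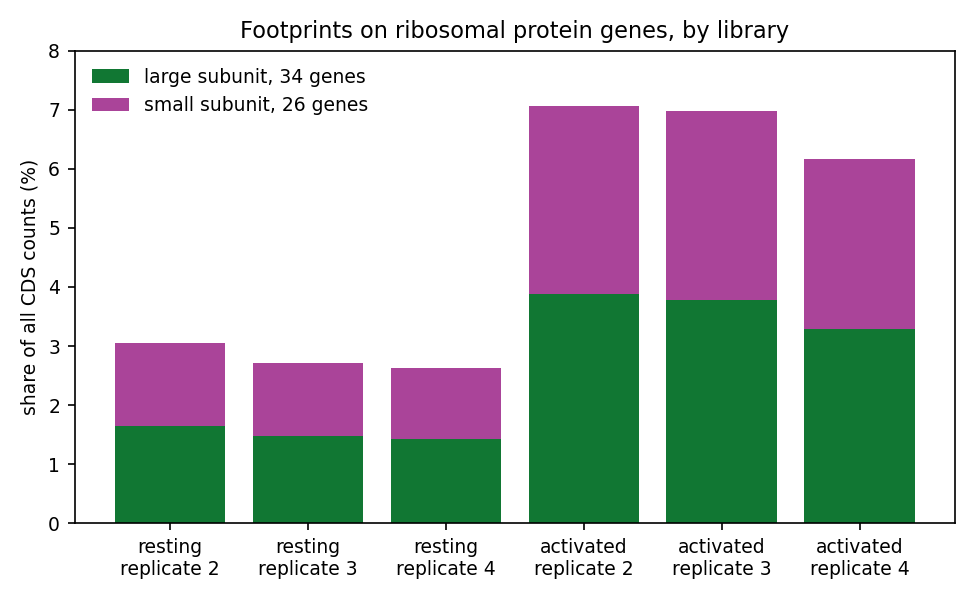
The share of all CDS counts, in percent, on the 34 large (green) and 26 small (purple) subunit genes in each library. The bars reach between 2.63% and 3.04% in resting cells and between 6.16% and 7.06% in activated cells, and both colours grow together.

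Both subunits rose by similar amounts. The 34 large subunit genes had a median log2 change of 1.55 (1.06 to 2.36), and the 26 small subunit genes a median of 1.59 (0.84 to 2.15). Counts on small subunit genes divided by counts on large subunit genes were 0.852, 0.834 and 0.848 in the resting libraries and 0.817, 0.851 and 0.870 in the activated libraries. The groups overlapped, with means of 0.845 ± 0.009 and 0.846 ± 0.027 (SD, n = 3 each). The order of the genes within the set was also close in both states: their shares of the set's own counts had a Spearman rho of 0.95 and a Pearson r of 0.93 over the 60 genes. This is a description across genes, which share libraries, length and mappability in both states.

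Among the large subunit genes, Rpl13 (ENSMUSG00000000740) had the highest change of the set. It stood at 225, 201 and 191 CPM in the resting libraries and 1238, 1150.2 and 789.8 CPM in the activated libraries. The log2 change was 2.36 ± 0.185 (SE), adjusted p = 5.87e-08. Activated replicate 4 was the lowest of its group, yet far above every resting library. Rpl12 (ENSMUSG00000038900), a protein at the base of the stalk, stood at 233, 208 and 183 CPM in the resting libraries and 988, 1011 and 792 CPM in the activated libraries. The change, 2.16 ± 0.165 (SE), adjusted p = 4.56e-08 on the log2 scale, left the groups far apart. Rpl14 (ENSMUSG00000025794) stood at 387, 386 and 323 CPM in the resting libraries and 1879, 1584 and 1069 CPM in the activated libraries. Its log2 change was 2.05 ± 0.194 (SE), adjusted p = 4.25e-07, again with activated replicate 4 lowest in its group. Rpl3 (ENSMUSG00000060036), a core protein that reaches towards the peptidyl transferase centre where peptide bonds form, stood at 728, 530.4 and 512 CPM in the resting libraries and 2511, 2249 and 2052 CPM in the activated libraries. Its log2 change was 1.95 ± 0.167 (SE), adjusted p = 1.52e-07, and resting replicate 2 was the highest resting library.

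The stalk is the mobile arm of the large subunit that recruits translation GTPases, and Rplp0 (ENSMUSG00000067274) anchors it. Rplp0 stood at 324, 196 and 157 CPM in the resting libraries and 854, 901 and 606 CPM in the activated libraries. Resting replicate 2 was the highest and resting replicate 4 the lowest of the resting libraries, and the log2 change was 1.82 ± 0.229 (SE), adjusted p = 8.53e-06. Rplp1 (ENSMUSG00000007892), which binds Rplp0 as a pair with Rplp2, stood at 149, 135 and 111 CPM in the resting libraries and 339, 358 and 294 CPM in the activated libraries, with a log2 change of 1.33 ± 0.168 (SE), adjusted p = 8.32e-06. Rplp2 (ENSMUSG00000025508) stood at 183, 253 and 199.8 CPM in the resting libraries and 614, 782 and 618 CPM in the activated libraries, with a log2 change of 1.66 ± 0.171 (SE), adjusted p = 9.63e-07. All 3 stalk genes rose without overlap between the groups. Rplp1 alone of the 3 did not pass the test against a 2-fold change (adjusted p = 0.0735).

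Rpl5 and Rpl11 enter the large subunit together with the 5S rRNA, and both are also known to bind Mdm2, the ubiquitin ligase of p53, when ribosome assembly is disturbed. Rpl5 had a log2 change of 1.67. Rpl11 (ENSMUSG00000059291) stood at 149, 156 and 152 CPM in the resting libraries and 261, 358 and 375 CPM in the activated libraries, with a log2 change of 1.13 ± 0.169 (SE), adjusted p = 4.64e-05. Rpl11 thus lay among the 6 lowest changes of the set, with activated replicate 2 the lowest library of its group. The difference between Rpl5 and Rpl11 itself was not tested.

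The lowest changes of the large subunit were in Rpl10, Rpl19, Rpl7 and Rpl11. Rpl10 (ENSMUSG00000008682), which joins late in the maturation of the 60S subunit, stood at 177, 235 and 249 CPM in the resting libraries and 429, 503 and 450.3 CPM in the activated libraries. Its log2 change was 1.06 ± 0.163 (SE), adjusted p = 6.37e-05. Rpl19 (ENSMUSG00000017404), which takes part in a bridge to the small subunit, stood at 982, 1015 and 1093 CPM in the resting libraries and 2265, 2189 and 2053 CPM in the activated libraries. Its log2 change was 1.07 ± 0.137 (SE), adjusted p = 1.01e-05. Rpl7 (ENSMUSG00000043716) stood at 746, 663 and 753 CPM in the resting libraries and 1393, 1595 and 1737 CPM in the activated libraries, with a log2 change of 1.13 ± 0.146 (SE), adjusted p = 1.13e-05. In all 3, the lowest activated library remained well above the highest resting one.

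Rpl22 (ENSMUSG00000028936), an RNA-binding protein needed for the development of alpha-beta T cells, stood at 185, 187 and 243 CPM in the resting libraries and 441, 563 and 482 CPM in the activated libraries. This was a log2 change of 1.27 ± 0.166 (SE), adjusted p = 1.21e-05, below the set's median. Rpl32 (ENSMUSG00000057841) stood at 679, 577 and 516 CPM in the resting libraries and 2202, 2128 and 1976 CPM in the activated libraries, with a log2 change of 1.83 ± 0.151 (SE), adjusted p = 1.06e-07. Resting cells thus had between 516 and 679 CPM on Rpl32, and no activated library was under 1976. Rpl4 and Rpl17, which line the tunnel through which the new peptide leaves, had log2 changes of 1.60 and 1.33. Rpl26 and Rpl35, at the tunnel's exit, had log2 changes of 1.42 and 1.85.

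A few members had under 50 CDS counts in at least 1 library, and their values are less certain. Rpl35 (ENSMUSG00000062997) had CDS counts of 32, 29 and 26 in resting and 70, 150 and 183 in activated libraries, and its log2 change was 1.85 ± 0.210 (SE), adjusted p = 2.87e-06. Rpl15 (ENSMUSG00000012405) had CDS counts of 49, 61 and 55 in resting and 151, 218 and 219 in activated libraries, and its log2 change was 1.56 ± 0.185 (SE), adjusted p = 4.53e-06. Rpl29 (ENSMUSG00000048758) had CDS counts of 48, 42 and 58 in resting and 125, 199 and 199 in activated libraries, and its log2 change was 1.53 ± 0.189 (SE), adjusted p = 6.84e-06. The groups did not overlap in CPM for any of the 3, and all 3 changes were smaller in a second counting mode (0.85 for Rpl15, 0.94 for Rpl29 and 1.103 for Rpl35). Fau and Rps23, described below, were the other members with such low counts.

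Among the small subunit genes, Rpsa and Rps2 rose most. Rpsa (ENSMUSG00000032518), also known as a laminin receptor, stood at 816, 631 and 555 CPM in the resting libraries and 3554, 2991 and 2350.4 CPM in the activated libraries. Its log2 change was 2.15 ± 0.185 (SE), adjusted p = 1.58e-07. Replicate 2 was highest and replicate 4 lowest in both groups. Rps2 (ENSMUSG00000044533), which lies at the channel where mRNA enters, stood at 122, 86.0 and 121 CPM in the resting libraries and 461, 406 and 374 CPM in the activated libraries, with a log2 change of 1.91 ± 0.176 (SE), adjusted p = 3.28e-07. Rps3, at the same channel, had a log2 change of 1.68. Rps6, the substrate of the S6 kinases that act downstream of mTOR, had a log2 change of 1.63.

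At the other end of the set, Rps23 (ENSMUSG00000049517), which lies at the decoding centre, stood at 79.9, 69.7 and 63.0 CPM in the resting libraries and 118, 131 and 129 CPM in the activated libraries. These were CDS counts of 38, 43 and 41 in resting and 52, 104 and 121 in activated libraries. The log2 change was 0.84 ± 0.188 (SE), adjusted p = 0.00164, the lowest of the 60. It stayed below the set's median, and the groups did not overlap. Other low changes of small subunit genes were those of Rps15 (1.18), Rps20 (1.27) and Rps14 (1.31), and other high ones those of Rps3a1 (1.84) and Rps13 (1.77), all as log2 changes in CDS.

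Fau and Rps27a encode a ribosomal protein fused to a ubiquitin-like protein or to ubiquitin, which is cleaved off. Fau (ENSMUSG00000038274) stood at 86.2, 97.3 and 66.1 CPM in the resting libraries and 268, 261 and 248 CPM in the activated libraries, with a log2 change of 1.64 ± 0.177 (SE), adjusted p = 1.63e-06. Its CDS counts were 41, 60 and 43 in resting and 118, 208 and 233 in activated libraries. Rps27a (ENSMUSG00000020460), a source of free ubiquitin, stood at 509, 503 and 601 CPM in the resting libraries and 1254, 1505 and 1750.0 CPM in the activated libraries, with a log2 change of 1.48 ± 0.161 (SE), adjusted p = 1.65e-06. Both fusion genes lay between the quartiles of the set. In Rps27a, replicate 4 was the highest library of each group.

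**Figure D3:**
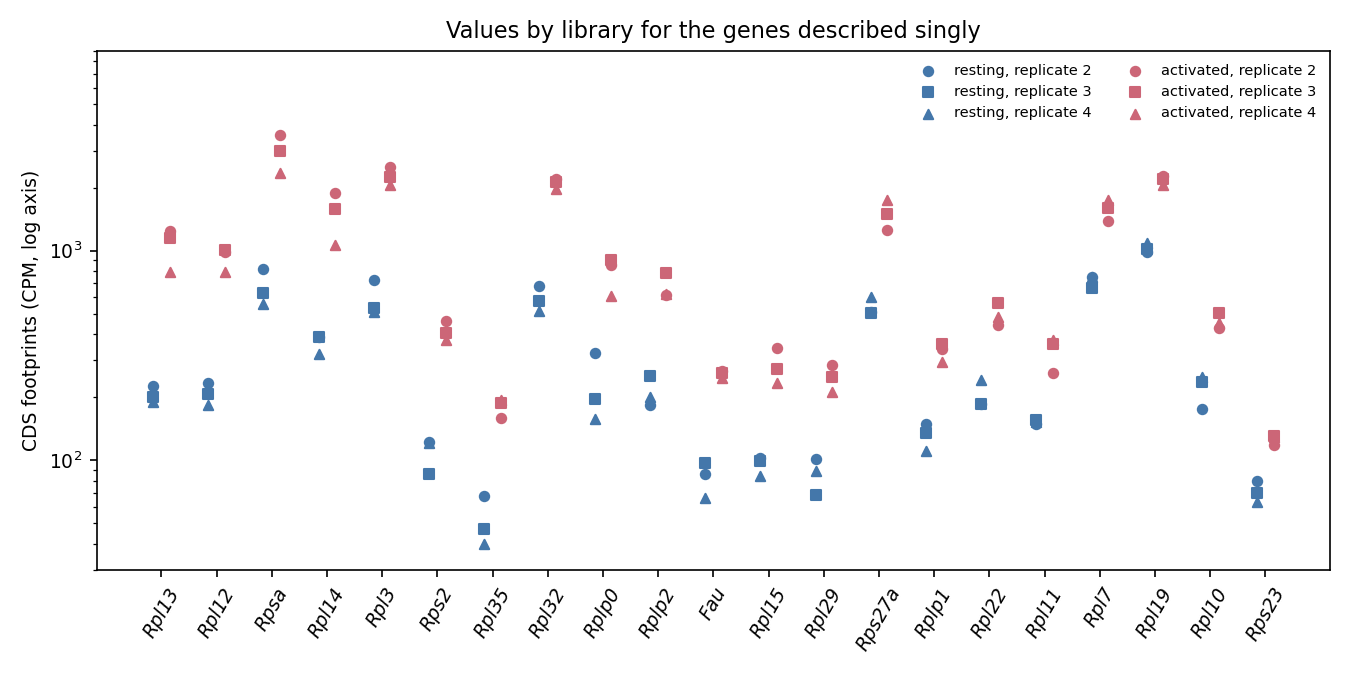
CDS footprints in CPM, on a log axis, in each of the 6 libraries for the 21 genes described singly, ordered by log2 change, with resting libraries in blue, activated libraries in red and a marker shape for each replicate number. Red lies above blue for every gene, with the widest gap at Rpl13 and the narrowest at Rps23.

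The next comparison asked which members moved more or less than the set as a whole. Libraries were scaled to the summed CDS counts of the 60 genes, so that a value of 0 means a change equal to that of the sum. By this test, chosen after the data were seen, 11 of the 60 passed an adjusted p of 0.05 in either direction. Over all genes tested 88.7% did, with a median log2 of -1.63, since genes that did not rise fall relative to the sum. That share and the members' centre near 0 both follow from the scaling, so the 88.7% is no background for the 11. The adjustment ran over all genes tested, and with so many passing it was little stricter than none. An unadjusted p under 0.05 was found in 12 members. No adjustment over the 60 alone was made, so adjusted p close to 0.05 are weak here. The 4 that rose beyond the sum were Rpl13 (log2 0.75 ± 0.183 (SE), adjusted p = 7.12e-04), Rpl12 (0.56, adjusted p = 0.00532), Rpsa (0.55, adjusted p = 0.00535) and Rpl14 (0.43, adjusted p = 0.0351). The 7 that rose less than the sum included Rps23 (-0.75, adjusted p = 0.00316), Rpl10 (-0.55, adjusted p = 0.0148), Rpl19 (-0.53, adjusted p = 0.00537), Rpl7 (-0.46, adjusted p = 0.0212), Rpl11 (-0.46, adjusted p = 0.0427) and Rps15 (-0.41, adjusted p = 0.0355). For the others the difference from the sum did not pass the test, which does not show that they moved alike.

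The count of 11 rested on single libraries in part. It was 7 without resting replicate 3, 6 without resting replicate 4, and 7 without activated replicate 2 or activated replicate 3. It was 12 without resting replicate 2, 16 without activated replicate 4, and 18 with the replicate number as a block, so it moved both ways. Rpl13, Rpl12, Rpsa, Rpl19 and Rps23 stayed past the threshold, in the same direction, under each alternative run for this test, and the other 6 did not. The table holds CDS counts in a second counting mode, which includes records that the first leaves out, and with it Rpl14 was at 0.25 (adjusted p = 0.184).

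Those extra records made up very different shares of the second mode's CDS counts, pooled over the libraries of a group. They were 73.8% in resting and 55.7% in activated cells for Rpl35. In Rpl13 they were 63.1% in resting and 49.5% in activated cells, in Rps2 55.7% in resting and 34.4% in activated cells and in Rps23 51.2% in resting and 56.0% in activated cells. Rpl7 had none. In a test also chosen after the data were seen, relative to the first CDS counts, 47 of the 59 members that could be tested had fewer extra records in activated cells and 12 had more, with a median log2 change of -0.26, against -0.005 over all genes tested. A single member passed an adjusted p of 0.05, against 0.109% of all genes: Rpl14, at -1.50 ± 0.288 (SE), adjusted p = 0.00488. That call was lost without resting replicate 3 and without activated replicate 2 or 3, and without activated replicate 4 the count of members was 4. In the second mode all 60 members still rose, with log2 changes from 0.80 to 2.21, but the order of some genes differed. Rpl12 (2.21) and Rpsa (2.14) stood above Rpl13 (1.97). Rps2 moved from 1.91 to 1.39, and Rpl35, Rpl15 and Rpl29 to the values given above. Rps23, last in the first mode, was at 1.04, and Rpl11 was last at 0.80. A rise of at least 2-fold was reached by 55 of the 60 in the second mode, against 14.4% of all genes tested there. The order of these members thus depends on the counting mode.

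Footprints in the 5' UTR, the part of an mRNA before its start codon, also rose. The 60 genes held 0.595% ± 0.288 of 5' UTR counts in resting cells and 1.34% ± 0.036 in activated cells (SD, n = 3 each). Counts were sparse: 30 of the 60 had at most 20 counts over all 6 libraries, and 23 of the 60 passed the filter on low counts. Of these 23, 16 rose, none fell and 7 did not pass the test (17 had an unadjusted p under 0.05, in either direction), where 22.2% of all genes tested were higher. Members that passed the filter may have done so through the activated libraries alone, so these 23 do not stand for the set.

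The smallest adjusted p for 5' UTR counts were those of Rpl10, Rpl30 and Rps20. Rps20, a small subunit protein, had 5' UTR counts of 66, 59 and 63 in the resting and 236, 362 and 409 in the activated libraries, a log2 change of 1.81 ± 0.240 (SE), adjusted p = 3.96e-05. Rpl30 had 20, 25 and 18 in the resting and 104, 171 and 160 in the activated libraries, a log2 change of 2.21 ± 0.255 (SE), adjusted p = 1.17e-05. Rpl10 had 6, 7 and 5 in the resting and 42, 73 and 82 in the activated libraries, a log2 change of 2.85 ± 0.315 (SE), adjusted p = 7.93e-06. In raw counts those 3 were higher in every activated library than in any resting one. Total 5' UTR counts were also higher there, 102410 to 153868 in activated against 62055 to 87910 in resting libraries. Rpl32 had 99, 55 and 82 in the resting and 126, 154 and 149 in the activated libraries, and its log2 change of 0.25 did not pass (adjusted p = 0.528).

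Within a gene, 5' UTR counts can be set against CDS counts of the same library. In a joint model of both regions, 30 members with enough counts in both regions were tested and 2 changed, in opposite directions, where 0.518% of all genes tested changed in either direction. Rpl32 had 30.7, 15.4 and 24.4 in the resting and 13.003, 9.10 and 8.03 in the activated libraries per 100 CDS counts. The groups did not overlap, and the log2 change of the ratio was -1.56 ± 0.276 (SE), adjusted p = 0.00297. Rpl10 had 7.14, 4.83 and 3.09 in the resting and 22.2, 18.2 and 19.4 in the activated libraries per 100 CDS counts. The activated libraries were all above the resting ones, the resting counts were 5 to 7 per library, and the log2 change was 1.76 ± 0.389 (SE), adjusted p = 0.0242. In this model, the 5' UTR counts of Rpl32 fell relative to its CDS counts, and those of Rpl10 rose relative to its CDS counts.

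Both calls were fragile. Without resting replicate 4, neither passed, and Rpl32 was at adjusted p = 0.116 and Rpl10 at 0.306. With 1 scaling for both regions, Rpl32 was at -1.22 (adjusted p = 0.114). Rpl32 was also lost without resting replicate 2 (adjusted p = 0.0619), and Rpl10 without resting replicate 3, activated replicate 3 or activated replicate 4, with adjusted p between 0.0567 and 0.202, and with the replicate number as a block (adjusted p = 0.0598). The direction was the same in every one of these fits. Rps20 had 39.5, 31.4 and 27.2 in the resting and 70.4, 56.2 and 50.6 in the activated libraries per 100 CDS counts, and Rpl30 had 13.2, 13.8 and 7.93 in the resting and 34.4, 31.2 and 18.8 in the activated libraries. In both the groups did not overlap, yet neither difference passed (log2 0.52, adjusted p = 0.472, and log2 0.92, adjusted p = 0.224). How records that span a start codon were assigned is not stated, so these ratios may hold some records of the CDS.

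**Figure D4:**
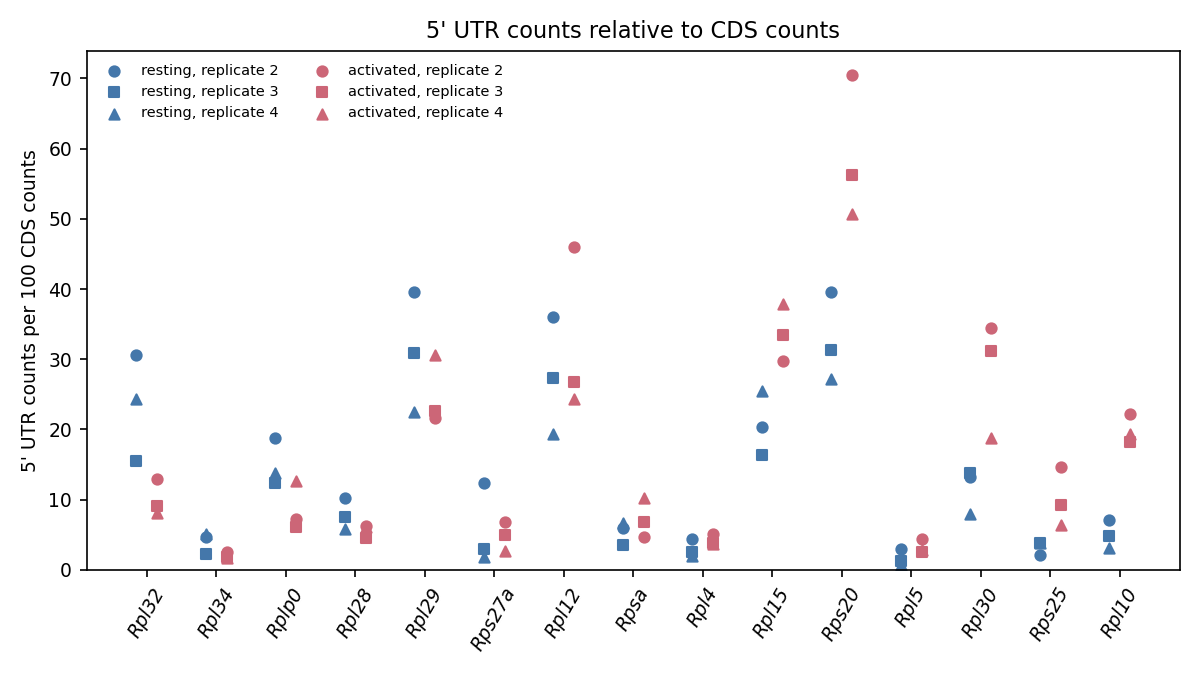
5' UTR counts per 100 CDS counts in each library for the 15 members with at least 100 5' UTR counts, ordered by the log2 change of that ratio, with resting libraries in blue and activated libraries in red. Rpl32, on the left, falls from between 15.4 and 30.7 to between 8.03 and 13.003, and Rpl10, on the right, climbs from between 3.09 and 7.14 to between 18.2 and 22.2.

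The 3' UTR, which ribosomes that stop at the stop codon do not enter, held few records on these genes. There were 151 over all 60 genes and 6 libraries, at most 16 for a gene. Their share of all 3' UTR counts was 0.179% ± 0.042 (SD, n = 3) in resting cells, against 0.107% ± 0.013 (SD, n = 3) after activation. No test was made on so few counts.

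Introns of ribosomal protein genes are known hosts of small nucleolar RNAs (snoRNAs), which guide the modification of rRNA and are released from the spliced intron. By RefSeq positions on GRCm38.p6, 26 of the 60 genes contain 50 snoRNA genes, and 34 contain none. The 26 hosts held 10423 intron counts over the 6 libraries, 96.7% of all intron counts of the set, with a median of 281.5 per gene and a range from 0 to 1338. The 34 others held 360, with a median of 6.5 and at most 58. Per kilobase of gene span, the medians were 63.8 and 1.55. Over 100 intron counts were found in 17 of the 26 hosts and in 0 of the 34 others. The table gives no positions within a gene, so whether the records lie on the snoRNAs was not tested, and intron records are not read here as ribosomes.

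**Figure D5:**
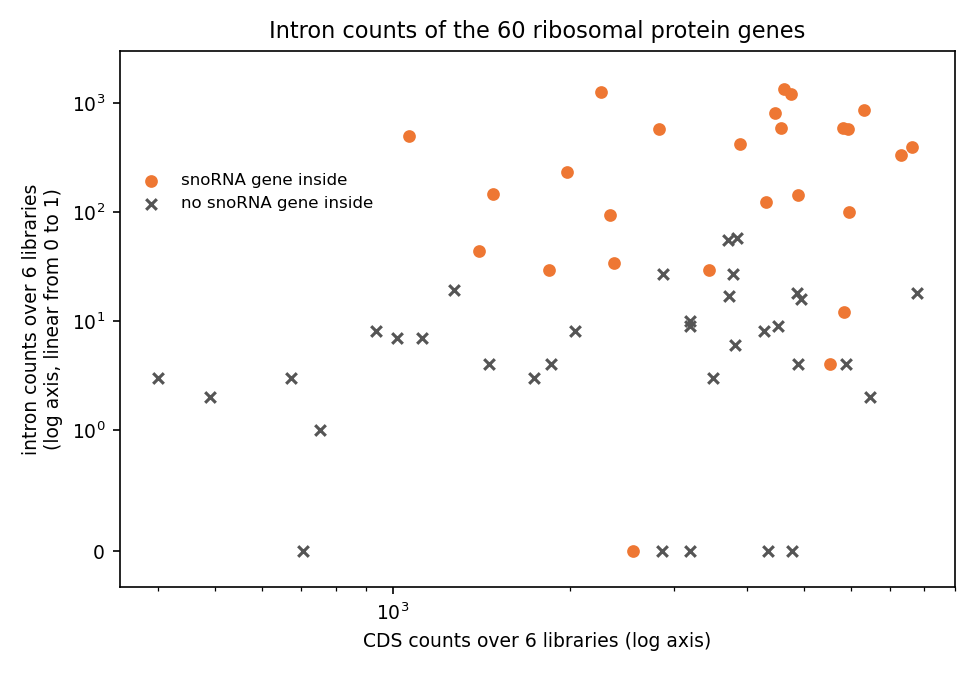
Intron counts against CDS counts, both summed over the 6 libraries on log axes, for the 26 members with a snoRNA gene inside (orange circles) and the 34 without (grey crosses). No cross lies above 58 intron counts, while the circles reach 1338 for Rpl13a.

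Intron counts were compared in the same way. As a share of all intron counts, the set held 6.74%, 0.904% and 1.89% in the resting libraries and 4.62%, 2.48% and 1.49% in the activated libraries. The groups overlapped, and resting replicate 2 was far above the other resting libraries. Of 21 members tested on intron counts, 1 changed, where 15.8% of all genes tested changed in either direction. That was Rpl12, with 6, 4 and 11 in the resting and 22, 29 and 21 in the activated libraries, a log2 change of 1.62 ± 0.417 (SE), adjusted p = 0.0284. The call was lost when CDS library sizes were used (adjusted p = 0.0606), without resting replicate 2 (0.110), without resting replicate 3 (0.130) and without activated replicate 3 (0.0905).

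Intron counts were then set against CDS counts of the same gene in a joint model, added after the data were seen. Relative to CDS counts they fell in 17 of 28 members tested, none rose and 11 did not pass (21 had an unadjusted p under 0.05). Over all genes tested, 8.09% were lower. CDS counts rose in all 60 members, and on intron counts alone none of the 21 tested was lower (median log2 -0.54). The fall is thus one of the ratio, and no fall in intron counts passed on its own. All 17 contain a snoRNA gene. Their log2 changes ran from -2.63 to -1.40. Of the 6 other hosts tested and the 5 members tested that contain no snoRNA gene, none passed. Those 5 had only 17 to 58 intron counts over the 6 libraries, while each of the 17 had at least 99. Their log2 changes ran from -1.92 (Rpl18, adjusted p = 0.0573) to 1.68 (Rpl14). A split by snoRNA content thus cannot be told apart from one by depth.

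As intron counts per 100 CDS counts, Rpl30 had 233, 95.6 and 121 in the resting and 45.0, 31.4 and 18.1 in the activated libraries, a log2 change of -1.999 ± 0.374 (SE), adjusted p = 0.00529. Rps16 had 52.7, 41.8 and 76.2 in the resting and 4.52, 6.94 and 12.2 in the activated libraries per 100, a log2 change of -2.63 ± 0.496 (SE), adjusted p = 0.00529. Rpl13a, host of 4 annotated snoRNAs including Snord32a, had 87.4, 45.6 and 49.3 in the resting and 36.7, 10.3 and 16.8 in the activated libraries per 100, a log2 change of -1.40 ± 0.413 (SE), adjusted p = 0.0455. In all 3 genes, every activated library was below every resting one. Without activated replicate 3 the count of 17 was 9.

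Copies of these genes limit the counts. RefSeq names 213 pseudogenes after 49 of the 60, with up to 14 for a gene (Rpl7a). Another protein-coding or long non-coding RNA gene overlaps 13 members, where snoRNA genes and pseudogenes were not counted. Records that align to several places form a class of their own in the table and count for no gene, so levels of members are not compared with each other here. The number of named pseudogenes and the CDS log2 change had a Spearman rho of -0.07 over the 60 genes, given as a description.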

How the data were processed

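The authors deposited raw counts per gene for 6 ribosome profiling libraries, in CDS (2 modes), 5' UTR, 3' UTR, exons and introns. Per the submitters' processing notes, the tools were HTSeq, Bowtie 1.1.1.0 and TopHat2 2.0.13, and the build was mm10. The sources used here do not give the strand setting, trimming or rRNA removal. Each column was joined to its sample through the number in the sample's description. Rows that name no gene were left out: records in no CDS made up 11.8% to 14.5% of a library.

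Counts were tested with edgeR 4.0.16 (R 4.3.3): filterByExpr, TMM factors, two-sided quasi-likelihood F test, Benjamini-Hochberg adjusted over every gene that passed the filter, threshold 0.05. CPM are counts per 1000000 of the TMM-scaled library size of the genes tested. Regions were set against CDS in 1 model per region, for genes with at least 5 counts in each region in at least 3 libraries. The 2-fold test was edgeR's glmTreat. DESeq2 1.42.0 and limma voom 3.58.1 were alternatives. The edgeR fits of CDS counts and of the 5' UTR against CDS were also run on simulated data. Those had the same spread setting for every gene and no effect shared by a replicate number. They thus give no error rate for the calls reported here. Extra records are those of the second CDS mode minus the first.

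The members, lists and tests were chosen with earlier results of these data known. Values in every library are given for the 6 highest and 6 lowest CDS changes, members called in the 5' UTR relative to the CDS, the stalk proteins, Fau, Rps27a, Rpsa, Rpl22 and members under 50 counts in any library. Others were named after their values were seen. A pair of members that enter all counts are not reported singly here. Other ribosomal proteins, paralogs, tract-bearing mRNAs, ribosome biogenesis genes and cell type markers were not used, because the reference lists no Ensembl IDs. Depth limits the 5' UTR, 3' UTR and intron values most.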

Additional observations from a re-analysis of the deposited data

How the results depend on the processing

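All 60 genes stayed higher in CDS at an adjusted p under 0.05 with each other scaling, filter, tool (DESeq2, limma voom), counting column and depth run, at 0.01, and without each library in turn (60 to 60); 45 passed glmTreat. Leaving out a library gave a difference in the share of CDS counts between 3.78 and 4.23 percentage points, and a difference in the small to large ratio between -0.0107 and 0.0159. Changes relative to the set's sum gave 13 calls with the second CDS mode and 6 to 16 without a library. Calls without a library ran from 12 to 17 for the 5' UTR, 0 to 3 for the 5' UTR relative to CDS, 0 to 4 for the extra records, 0 to 1 for introns and 9 to 17 for introns relative to CDS. With 1 scaling for both regions, the 5' UTR relative to CDS gave 1 call. With CDS library sizes, introns gave 0 calls. The cause of these losses was not tested. 5' UTR rises numbered 17 with CDS factors and 18 with a filter of at least 5 counts in at least 3 libraries.

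The labels number the libraries alike in both groups. Over all genes, deviations from the group means of libraries with the same number correlated at 0.13, 0.07 and 0.23 for replicates 2, 3 and 4. The main fits did not take the numbers as pairs, a choice that these values do not settle. No values for different numbers were computed over all genes. Over the 60 members the values were 0.48, 0.19 and 0.53, all above those for different numbers, -0.52 to 0.10. Deviations from a group mean sum to 0 for each gene, so higher values for the same number force lower ones for different numbers. This contrast is thus partly built in, and the genes share libraries. With the replicate number as a block, 60 members were higher in CDS, 18 changed relative to the set's sum, 14 rose in the 5' UTR, 1 changed in the 5' UTR relative to CDS (Rpl32, while Rpl10 had an adjusted p of 0.0598), 2 changed in introns and 17 in introns relative to CDS.

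The level per codon was not run, since no coding lengths were given. Depth limits the 5' UTR, 3' UTR and intron values, many of which rest on under 50 counts per library.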
